A study of Homo sapiens with 6 samples.

Results

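The 10 replication-dependent histone genes described here were measured in Ago2 precipitates of HEK293 cells: HIST1H1C, HIST1H2AC, HIST1H2BC, HIST1H2BD, HIST1H2BG, HIST1H2BJ, HIST1H2BK, HIST1H4H, HIST2H2BE and HIST3H2A. They were selected on a name list of histone genes described as making polyadenylated mRNA too, drawn up with the mimic-against-control differences of these same libraries in view, so those differences are a description here, and the calls of the fit over all genes are given for them only as counts. All 10 names were found, once each, among 48162 genes, next to 60 other protein-coding genes of the same HIST families, and all 10 passed the filter on low counts that left 16233 genes. HEK293 cells, an established line from human embryonic kidney, received Ago2 with a Flag tag together with microRNA-219 mimics (3 libraries) or negative control mimics (3 libraries). Ago2 is the protein that holds a microRNA in the silencing complex. The dates were 22 August, 5 September and 18 September with 1 library per group each, and every library, controls included, came from cells given Flag-Ago2 and from RNA of the Flag pull-down. Input RNA was not analysed here, so a level combines the amount of a transcript in the cells and its binding.

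Replication-dependent histone genes have no introns in their main transcript, are switched on in S phase, and end their mRNA in a conserved stem-loop in place of a poly(A) tail. The stem-loop is bound by SLBP and cut with the help of the U7 small nuclear ribonucleoprotein. Some of these genes also hold a polyadenylation signal further downstream, and read-through to it gives a tailed mRNA that persists outside S phase. Their products are the linker histone H1, which binds nucleosomes from outside, and the core histones H2A, H2B and H4.

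The labels speak of microRNA-219 without saying which strand the mimic carries. The 2 mature strands of MIR219A2, the locus in the study's title, are shown for orientation, from RefSeq on GRCh38.p14, with the seed (bases 2 to 8) in capitals.
hsa-miR-219a-5p: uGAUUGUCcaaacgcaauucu
hsa-miR-219a-2-3p: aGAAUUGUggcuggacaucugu
Transcript sequences were not used here, so matches to either seed in the histone mRNAs were not looked for.

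Library depth ran from 20233819 to 34408699 counts, and the 18 September libraries were the shallowest of each group. Transcripts that mark other cell types were also counted: 6 intestinal, plasma cell and red cell markers (IGHA1, PIGR, FABP1, HBB, HBA1 and HBA2, all with a count in some library) summed to between 0.138 and 13.9 normalised CPM (counts scaled to a common library size) with the mimic and to between 21.7 and 700 with the control. The highest sum was that of the 5 September control library, where HBB, the haemoglobin beta chain, held 23319 counts. IGHA1, an immunoglobulin heavy chain, and FABP1, a fatty acid binding protein, had 0 counts in the mimic library of 22 August and in the control library of 5 September. On that date the intestinal and plasma cell markers ran the other way: IGHA1 stood at 5.15 CPM with the mimic against 0 with the control, PIGR at 1.80 against 0.03, and FABP1 at 1.59 against 0. The sum was higher in every control library, but not each of its genes, and the part of these transcripts in the differences below was not tested.

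The 10 genes code for 4 of the 5 histone types, with 6 for H2B, 2 for H2A (HIST1H2AC and HIST3H2A), 1 for H4 (HIST1H4H) and 1 for H1 (HIST1H1C, which encodes H1.2). None codes for H3. Of the 10, 8 lie in the large cluster on chromosome 6, and HIST2H2BE and HIST3H2A lie in separate clusters on chromosome 1. In the gene models of the deposited table, 6 of the 10 spanned more genome than their exons cover, that is, held an intron, against 7 of the 60 other genes. HIST1H2AC (ENSG00000180573) covered chr6:26124373-26139344 of hg19 on the plus strand with 1668 bases of exon, HIST1H2BD (ENSG00000158373) chr6:26158349-26171577 with 789 bases, and HIST1H2BK (ENSG00000197903) chr6:27106073-27114619 on the minus strand with 820 bases. The models of HIST1H1C (chr6:26055968-26056699, 732 bases), HIST1H2BG (chr6:26216428-26216872, 445 bases) and HIST3H2A (chr1:228645065-228645560, 496 bases) were single exons. The median model length was 760.5 bases for the 10 genes and 477 bases for the others. The table says nothing on tails, so the polyadenylated state that names the set was not measured, and read-through transcripts are counted only as far as these models reach.

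Of the 6 H2B genes 5, and both H2A genes, start beside a histone gene on the opposite strand, with 218 to 292 bases between the 2 models. HIST1H2AC and HIST1H2BC form such a pair with each other, 218 bases apart. The others pair with genes outside the set: HIST1H2BG with HIST1H2AE, HIST1H2BJ with HIST1H2AG, HIST1H2BK with HIST1H2AH, HIST2H2BE with HIST2H2AC, and HIST3H2A with HIST3H2BB. The stretch between the starts of HIST1H2BC and HIST1H2AC is shown because both are members and share it (RefSeq, GRCh38.p14, chr6:26123927-26124171, plus strand, 245 bases). Capitals mark CCAAT (the CCAAT box), TATAAA (the TATA box) and ATTTGCAT (the octamer bound by POU factors), on either strand.
HIST1H2BC and HIST1H2AC: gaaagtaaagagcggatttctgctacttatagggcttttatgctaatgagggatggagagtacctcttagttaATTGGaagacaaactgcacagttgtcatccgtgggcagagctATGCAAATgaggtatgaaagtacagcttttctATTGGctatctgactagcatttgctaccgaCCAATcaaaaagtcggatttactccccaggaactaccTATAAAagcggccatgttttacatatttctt
HIST1H2AC had its TATA box at −31 and a CCAAT box at −68 from its start. The octamer lay between the genes, at −130 from HIST1H2AC and −123 from HIST1H2BC. HIST1H2BC had no TATAAA near its own start, and the one found in its window was that of HIST1H2AC.

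The 100 bases before the start of the other 5 H2B genes are shown, marked in the same way. Of these genes, 4 have the same boxes in the same order, and HIST1H2BD lacks the exact letters of 1 box. The genes also differed in level and in their ratio between mimics. Coordinates on GRCh38.p14 are chr6:27146859-27146958 for HIST1H2BK, chr6:27132796-27132895 for HIST1H2BJ, chr6:26216689-26216788 for HIST1H2BG and chr1:149886683-149886782 for HIST2H2BE, all on the minus strand, and chr6:26158021-26158120 on the plus strand for HIST1H2BD.
HIST1H2BK: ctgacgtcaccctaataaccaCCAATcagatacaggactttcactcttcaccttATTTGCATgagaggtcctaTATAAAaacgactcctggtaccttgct
HIST1H2BJ: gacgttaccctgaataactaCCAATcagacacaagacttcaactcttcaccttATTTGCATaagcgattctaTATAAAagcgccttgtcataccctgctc
HIST1H2BG: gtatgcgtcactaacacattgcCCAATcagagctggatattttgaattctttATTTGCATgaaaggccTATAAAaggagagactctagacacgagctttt
HIST2H2BE: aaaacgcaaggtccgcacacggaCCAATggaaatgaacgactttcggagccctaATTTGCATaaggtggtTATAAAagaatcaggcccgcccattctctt
HIST1H2BD: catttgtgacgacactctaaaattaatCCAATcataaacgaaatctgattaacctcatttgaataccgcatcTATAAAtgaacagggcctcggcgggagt
HIST1H2BK, HIST1H2BJ, HIST1H2BG and HIST2H2BE each held a CCAAT box between −80 and −77, the octamer between −48 and −46 and a TATA box between −32 and −27. HIST1H2BD had the CCAAT box at −73 and the TATA box at −28, and the exact letters ATTTGCAT were not in its window. Only exact letters were searched for in all windows, so near matches to a box were not counted. Over the RefSeq windows of 250 bases before to 50 after the start, the octamer was found for 6 of the 10 genes, CCAAT for 9 and TATAAA for 7. Among 55 windows of the other histone genes these were 20 (36.4%), 46 (83.6%) and 36 (65.5%), and among 27305 promoters of all genes 1.80%, 35.7% and 11.95%. Within H2B alone, the octamer was found for 5 of the 6 genes of the set and for 9 of 12 others (75.0%). CCAAT was found for 6 of 6 and 12 of 12, and TATAAA for 6 of 6 and 6 of 12. These counts take either strand of the whole window, so neighbours can share a box. The only TATAAA counted for HIST1H2BC was that of HIST1H2AC, at −220 on the opposite strand. The octamer was thus also common in the H2B genes outside the set. HIST1H4H held none of these letters, while HIST1H1C and HIST3H2A held only CCAAT.

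Per length, HIST1H2BK was the most abundant replication-dependent histone transcript of the precipitates, at a mean of 118 normalised CPM per kb of gene model (96.5 to 134 over the 6 libraries). HIST1H1C followed at 57.0 (36.3 to 71.9) and HIST3H2A at 40.8 (31.8 to 50.6), with ranges that overlapped each other but not that of HIST1H2BK. HIST1H2BD at 14.8 (11.7 to 19.4), HIST1H2AC at 9.53 (5.59 to 14.6) and HIST1H4H at 7.83 (5.46 to 11.0) formed the middle of the order, each range overlapping the next. HIST1H2BJ stood at 4.55 (3.17 to 5.63), and its highest library just reached the lowest of HIST1H4H. HIST2H2BE at 2.48 (1.84 to 2.78), HIST1H2BG at 2.22 (1.40 to 3.88) and HIST1H2BC at 2.22 (2.02 to 2.41) overlapped and were the lowest. The set was therefore not uniform in abundance: 4 members took the first 4 places among all 70 histone genes, whereas HIST2H2BE, HIST1H2BG and HIST1H2BC took places 19, 21 and 22. The most abundant genes outside the set were the H3 genes HIST1H3H (13.8 CPM per kb) and HIST1H3E (12.5). This order depends on model length: HIST2H2BE had a mean of 5.516 CPM on 2223 bases, and HIST1H2BJ 3.265 CPM on 718 bases. The treatment of reads shared by near-identical genes and any poly(A) selection are not known, so levels between genes are uncertain.

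**Figure D1:**
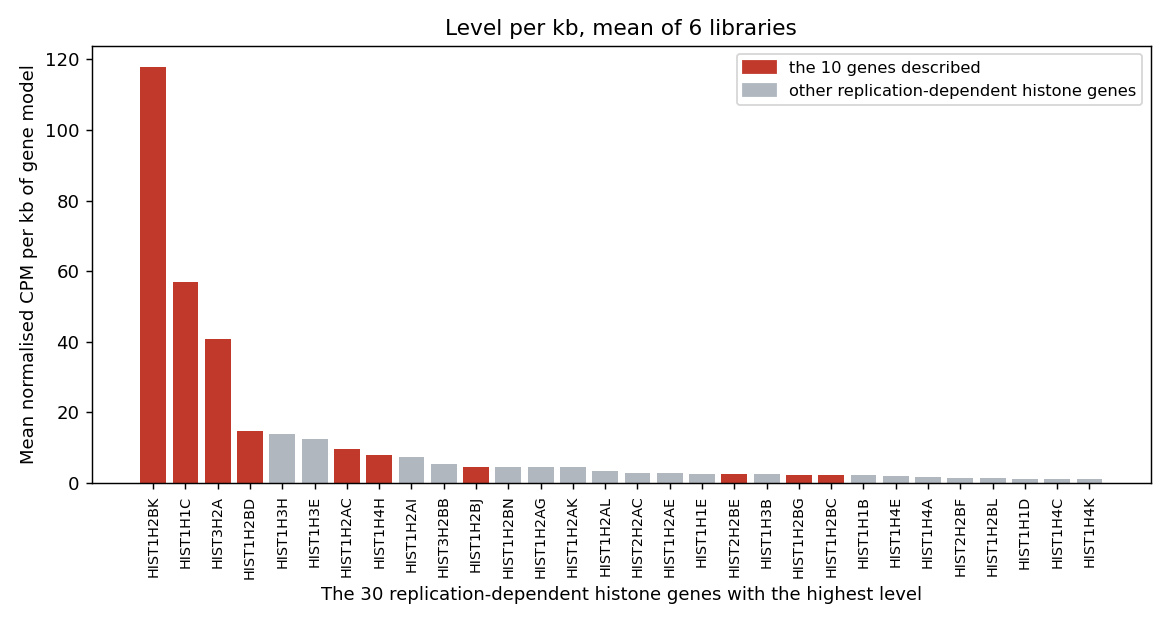
Mean level of the 30 most abundant replication-dependent histone genes in normalised CPM per kb of gene model over 6 libraries (bars from 0, red for the 10 genes described, grey for others). HIST1H2BK at 118, HIST1H1C at 57.0 and HIST3H2A at 40.8 stand above all others. HIST1H2BG and HIST1H2BC, the lowest of the set at 2.22, take places 21 and 22 of the 70 histone genes.

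The 10 genes held 32166 of the counts of the 70 histone genes over all libraries, or 77.7%. In the mimic libraries their share was 74.2%, 78.5% and 81.3% in date order, and in the control libraries 79.5%, 73.0% and 80.9%, so the groups overlapped. Most H2B counts came from the set, between 91.4% and 94.1% per library, and so did most H1 counts (84.8% to 92.5%, from HIST1H1C alone). For H2A the share lay between 55.8% and 70.6%. HIST1H4H alone held between 46.5% and 59.6% of the H4 counts. These are shares of counts not scaled for length, and the median model was longer for the 10 genes (760.5 against 477 bases). Any poly(A) selection and the treatment of reads shared by near-identical genes are not known. The shares are therefore not taken as the make-up of histone mRNA in the cells. Summed, the set reached 221 ± 23.7 normalised CPM with the mimic and 190 ± 28.4 with the control (mean ± SD, n = 3 each). The other 60 genes together reached 61.7 ± 6.15 and 53.3 ± 5.14 CPM, and 11 replacement variants, which are made outside S phase too, 2788 ± 200 and 2895 ± 339.

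**Figure D2:**
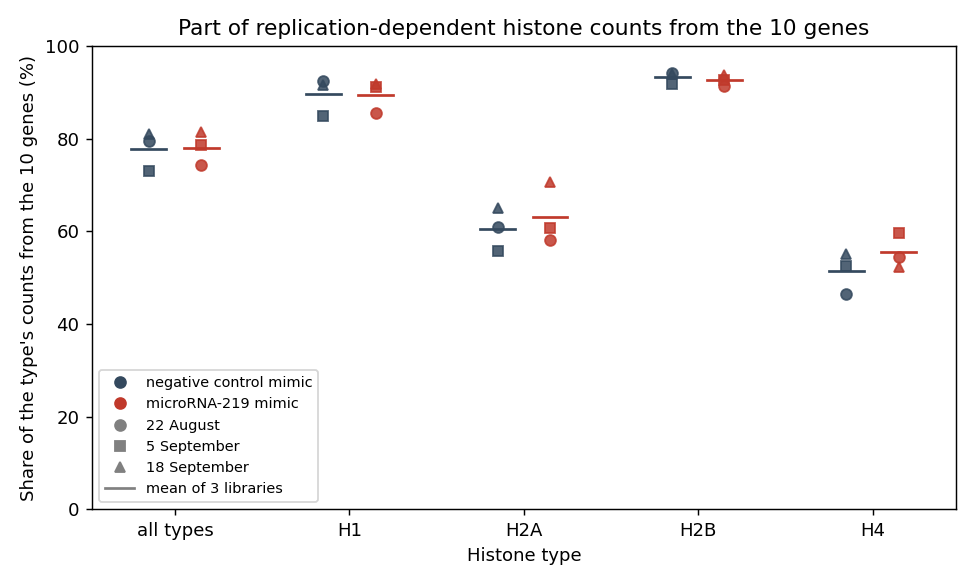
Share of replication-dependent histone counts that came from the 10 genes, in percent, for all types and for each type (points are libraries, coloured by mimic and shaped by date, lines are means of 3). H2B stays above 91% in each library, and the groups overlap for every type shown. Counts are not scaled for gene length.

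With the mimic, 10 of the 10 genes had a fitted log2 fold change above 0, from 0.01 to 0.77, with a median of 0.44. Over all genes tested the median was 0.00 and 50.3% lay above 0. Among the 28 other histone genes tested it was 0.27, with 24 above 0. By edgeR's quasi-likelihood test with Benjamini-Hochberg adjustment, 0 of the 10 passed an adjusted p of 0.05, where 0.0% of all genes did. DESeq2 called 0 of the 10 and 5 of 28658 genes, and limma-voom 0 of the 10 and 0 of 16233 genes. Of the 10, 4 had an unadjusted p under 0.05 by each tool. Among all genes 488 of 16233 did by edgeR, 456 of 28658 by DESeq2 and 479 of 16233 by limma-voom. In 5 of the 10 the lowest mimic library lay above the highest control library, against 4.22% of all genes (685). These counts come from the differences that were in view when the genes were chosen, and nothing is read from them.

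**Figure D3:**
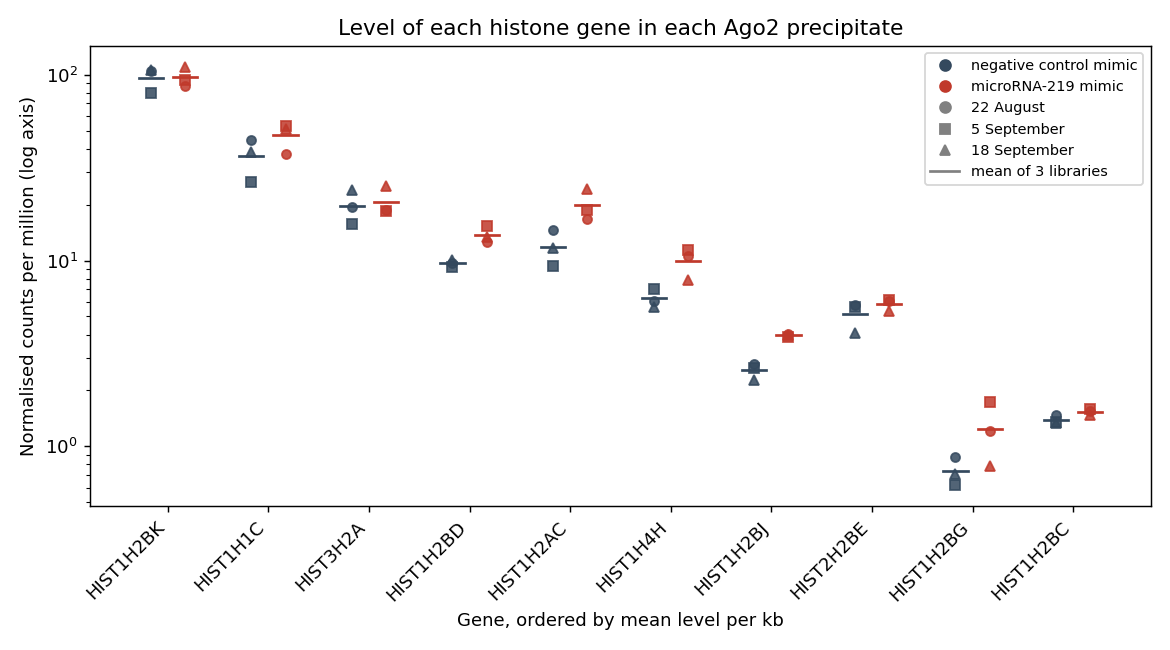
Level of each gene in each library in normalised CPM on a log axis (points coloured by mimic and shaped by date, lines are means of 3), with genes ordered by level per kb. HIST1H2AC, HIST1H4H, HIST1H2BJ, HIST1H2BD and HIST1H2BC have every mimic library above every control library, and the other 5 genes overlap.

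Among the H2A and H4 genes, HIST1H2AC, which encodes a canonical H2A, had 16.8, 18.7 and 24.3 normalised CPM with the mimic in date order and 14.5, 9.32 and 11.7 with the control. The groups did not overlap, and the lowest mimic library stood just above the control library of the same date. The fitted log2 fold change was 0.75 (SE 0.20), with ratios of 0.20, 1.001 and 1.05 on the 3 dates, so the difference was small on 22 August. HIST1H4H, one of many genes for the identical H4 protein, had 10.6, 11.4 and 7.82 CPM with the mimic, against 6.07, 7.07 and 5.65 with the control. Its log2 fold change was 0.66 (SE 0.19), with ratios of 0.80, 0.68 and 0.46. HIST3H2A, the H2A gene of the small chromosome 1 cluster, had 18.6, 18.5 and 25.1 CPM with the mimic, against 19.3, 15.8 and 24.1 with the control. Its groups overlapped, the 18 September library was the highest of each, and its log2 fold change was 0.07 (SE 0.19).

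Within H2B, 3 genes had log2 fold changes above 0.5. HIST1H2BJ had 4.04, 3.88 and 3.98 CPM with the mimic, against 2.78, 2.63 and 2.28 with the control. Its groups did not overlap, with a log2 fold change of 0.63 (SE 0.21) and ratios of 0.53, 0.55 and 0.78. HIST1H2BD had 12.5, 15.3 and 13.3 CPM with the mimic, against 9.73, 9.23 and 10.1 with the control, again without overlap (log2 fold change 0.51, SE 0.16). HIST1H2BG had 1.21, 1.73 and 0.787 CPM with the mimic, against 0.873, 0.621 and 0.712 with the control. This last gene was the scarcest, with 35, 49 and 17 counts against 22, 21 and 15, and at 15 counts the counting error alone is 25.8%. Its groups overlapped, and its log2 fold change of 0.77 (SE 0.36) was 0.46 without the mimic library of 5 September, 0.335 without both libraries of that date, and 0.999 without the mimic library of 18 September.

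The other 3 H2B genes differed little between mimics. HIST1H2BK had 87.2, 94.1 and 110 CPM with the mimic, against 104, 79.1 and 105 with the control, a log2 fold change of 0.01 (SE 0.16) with overlapping groups. HIST2H2BE had 6.08, 6.17 and 5.32 CPM with the mimic, against 5.80, 5.65 and 4.08 with the control (log2 fold change 0.18, SE 0.20), also overlapping. Without the control library of 18 September, its lowest, the value was 0.04. HIST1H2BC had 1.55, 1.59 and 1.48 CPM with the mimic, against 1.47, 1.36 and 1.33 with the control. Its groups were separate by a narrow margin, with means of 1.54 ± 0.0538 and 1.39 ± 0.0731 (SD, n = 3 each) and a log2 fold change of 0.15 (SE 0.26). HIST1H2BC had 28 to 46 counts per library, so that counting error alone reached 18.9% at the lowest and exceeded the CV of 6.98% between its libraries.

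HIST1H1C, the linker histone gene, had 37.5, 52.6 and 51.1 CPM with the mimic, against 44.5, 26.6 and 38.2 with the control. The mimic was lower on 22 August and higher on both later dates, with log2 ratios of −0.25, 0.98 and 0.42. The fitted value was 0.37 (SE 0.20) and the groups overlapped. Without both libraries of 22 August it was 0.69, without both of 5 September 0.10, and 0.19 when only that date's control library, the one with the haemoglobin counts, was left out. Without that control library HIST1H2AC was 0.60, HIST1H2BD 0.48, HIST1H2BJ 0.65 and HIST1H4H 0.77, against 0.75, 0.51, 0.63 and 0.66 over all libraries. HIST1H2BG was then 0.66, HIST1H2BC 0.14 and HIST2H2BE 0.24, against 0.77, 0.15 and 0.18. HIST1H2BK and HIST3H2A fell below 0, to −0.11 and −0.06, from 0.01 and 0.07. The median of the 10 genes was 0.36, against 0.44.

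**Figure D4:**
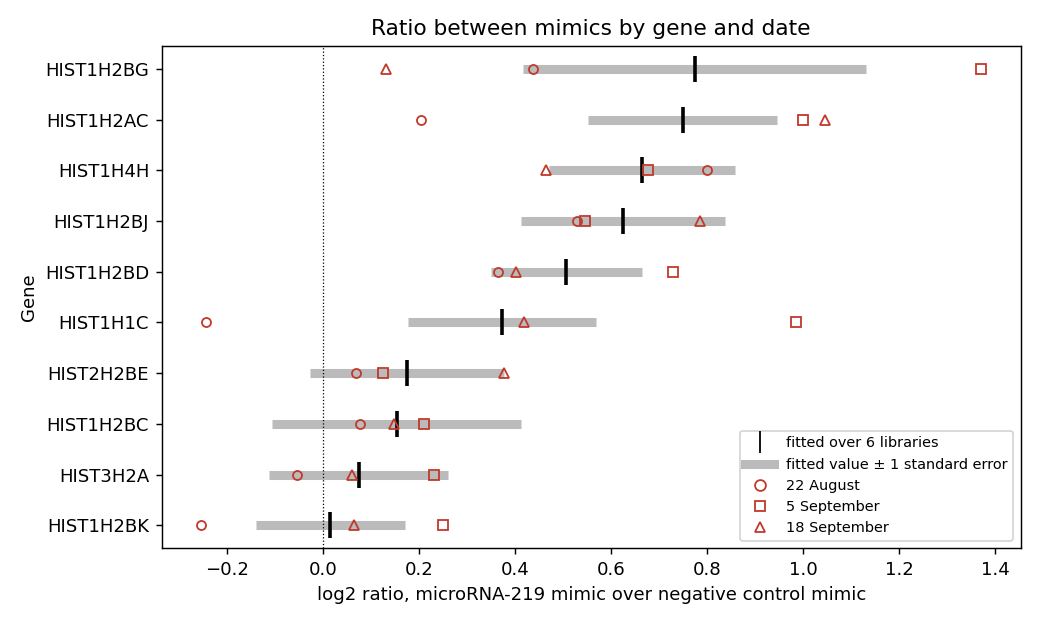
Log2 ratio of the microRNA-219 mimic over the negative control mimic for each gene (open points are the 3 dates, black ticks the fitted values over 6 libraries, grey bars ± 1 SE). The ratio spans least between dates for HIST1H2BC (0.13), followed by HIST1H2BJ (0.26). HIST1H1C runs from −0.25 to 0.98, and HIST1H2BK and HIST3H2A lie around 0.

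By date, the median log2 ratio of the 10 genes was 0.14 on 22 August, 0.61 on 5 September and 0.39 on 18 September, and 7 of the 10 were above 0 on all 3 dates, as were 2535 of the 16233 genes tested. The other histone genes had medians of 0.39, 0.04 and 0.30, with 8 of 28 above 0 on all dates. By these medians, the set was lowest on the date on which the other histones were highest. Single genes and types differed: HIST1H4H had its highest ratio on 22 August (0.80). Among the other histones, H1, H2A and H2B genes had their highest medians on 22 August (0.91, 0.38 and 0.54). H3 and H4 genes had theirs on 18 September (0.36 and 0.73). This difference between the sets was not tested, and the ratios belong to the contrast in view when the genes were chosen.

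Differences between dates are another contrast than the one named in the choice of the genes, and they were tested, although date results of these libraries were also known by then. The test asked whether the 3 dates differed after allowing for the mimic, and 0 of the 10 genes passed (edgeR, adjusted p from 0.339 for HIST3H2A to 0.973 for HIST1H2BC), where 0.308% of all genes did. DESeq2 also called 0 of the 10, and 166 of 28658 genes. By limma-voom the calls were 0 of the 10 and 41 of 16233 genes. The unadjusted p was under 0.05 for 1 of the 10, HIST3H2A (0.0217), and for 2138 of all genes. Setting single dates against the average of the remaining dates, 0 members passed on 22 August (0.339% of all genes), 0 on 5 September (0.0%) and 0 on 18 September (0.0493%).

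The order of the dates differed between the members, though no difference passed. HIST3H2A averaged 19.0, 17.2 and 24.6 CPM over both mimics in date order, and HIST1H2BK 95.7, 86.6 and 108, so both stood highest on 18 September and lowest on 5 September. HIST1H2AC (15.6, 14.02 and 18.0) and HIST1H1C (41.0, 39.6 and 44.6) had the same order. HIST1H4H had the opposite order at 8.35, 9.21 and 6.74 CPM, and HIST1H2BG (1.04, 1.17 and 0.750) had it too, while HIST2H2BE (5.94, 5.91 and 4.70) was also lowest on 18 September. HIST1H2BC (1.51, 1.47 and 1.41) and HIST1H2BJ (3.41, 3.26 and 3.13) were highest on 22 August and lowest on 18 September. HIST1H2BD (11.1, 12.3 and 11.7) was lowest on 22 August. On 18 September HIST3H2A lay 0.45 above the other dates on the log2 scale (SE 0.12, edgeR adjusted p = 0.223) and HIST1H4H 0.36 below, a log2 difference of −0.36 (SE 0.16, edgeR adjusted p = 0.312). Neither passed. That date also had the fewest counts per library, and its depth was not tested as a part of these differences.

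Calls between dates came with 22 August left out in part. Without the mimic library of 22 August, HIST1H2AC (adjusted p = 0.0318) and HIST3H2A (0.0276) passed edgeR's test between dates, where 16.8% of all genes did. Without the control library of 22 August, HIST3H2A (0.0102), HIST1H2BK (0.0244), HIST1H2AC (0.0308) and HIST1H1C (0.0368) passed, where 25.5% of all genes did. In these fits 22 August has a single library, and its own spread is not measured.

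Across the 6 libraries, 36 of the 45 pairs of members had a correlation of log2 CPM above 0, with a median Pearson r of 0.58. The closest pairs were HIST1H2BK with HIST3H2A (r = 0.89) and HIST1H2BC with HIST1H2BJ (0.89), and the most opposed was HIST2H2BE with HIST3H2A (−0.65). The divergent members HIST1H2AC and HIST1H2BC differed in their ratio between mimics, at 0.75 and 0.15. These are descriptions over 6 libraries that share dates and depth. They take in both groups, and so the difference between mimics that was in view when the genes were chosen. The share of pairs above 0 among all genes was not computed, and nothing is read from these correlations. Among 16223 other genes, those with the profile most like the members' mean were C5orf24 (r = 0.98), FAM110C (0.98), PGAM5 (0.98), RP11-1415C14.3 (0.98) and C12orf23 (0.97), over the same 6 libraries.

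The partners across the divergent starts can be set beside the members. HIST1H2AE, the partner of HIST1H2BG, had 1.93, 1.69 and 1.81 CPM with the mimic against 1.47, 0.769 and 1.47 in the controls, a log2 fold change of 0.57 (SE 0.31) without overlap. HIST1H2AG, the partner of HIST1H2BJ, had 0.11 (SE 0.17), where HIST1H2BJ had 0.63. HIST2H2AC had 0.33 and HIST3H2BB 0.24, where HIST2H2BE had 0.18 and HIST3H2A 0.07. HIST1H2AH, the partner of the abundant HIST1H2BK, held 39 counts in all 6 libraries against 15092 for HIST1H2BK and was not tested. None of the partners that were tested passed (edgeR adjusted p = 0.999 each). HIST1H2BK overlaps HIST1H4I on the opposite strand over 1343 bases, but HIST1H4I held only 67 counts.

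The machinery that makes and removes histone mRNA was counted from lists written with earlier results known. Of 16 genes of stem-loop processing, 5 lay above 0 and 11 below between mimics (median −0.07), and 0 passed. LSM10, a protein of the U7 particle, had 8.36, 9.83 and 11.0 CPM with the mimic, against 14.7, 14.1 and 15.8 with the control, a log2 fold change of −0.61 (SE 0.16, edgeR adjusted p = 0.999). Its groups did not overlap, and its partner in the U7 particle, LSM11, had 0.23 (0.14 without the mimic library of 22 August). NPAT (0.16) and CASP8AP2 (0.12), which act at histone gene loci, had the lowest p of this list between dates without passing (edgeR adjusted p = 0.363 and 0.185). CASP8AP2 passed between dates by DESeq2 (adjusted p = 0.0148), and its adjusted p ran from 0.000479 to 1.0 over the alternatives.

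Of 14 genes of histone mRNA decay, 6 lay above 0 and 8 below (median −0.03), with the exonuclease XRN1 at 0.24 (0.05 without the mimic library of 5 September) and LSM5 of the Lsm ring at −0.21 (−0.08 without the control library of 22 August). Of 16 genes of ordinary cleavage and polyadenylation, 8 lay on each side (median 0.00), with the kinase CLP1 at −0.44 and the cleavage factor CSTF1 at −0.15 (−0.23 and −0.08 without the control library of 22 August). PCF11, another cleavage factor, did not pass between dates by edgeR (adjusted p = 0.297) and passed by DESeq2 (adjusted p = 0.0391) and by edgeR with no filter on low counts (adjusted p = 0.00298). Replacement variants had 2 of 11 above 0 (median −0.12), with CENPA, the centromeric H3, at 0.52 (0.32 without the mimic library of 18 September) and H3F3A, an H3.3 gene, at −0.33 (−0.18 without the control library of 18 September). Histone chaperones split evenly, 8 and 8 (median 0.01), with the FACT subunit SUPT16H at 0.36 and CABIN1 at 0.16 (0.02 without the mimic library of 22 August). So did 20 genes of S-phase entry and DNA synthesis, 10 and 10 (median −0.0019), with the DNA polymerase subunit POLA1 at 0.33 and cyclin E1 (CCNE1) at −0.19 (−0.01 without the control library of 18 September). In each of these lists 0 genes passed between mimics and 0 between dates by edgeR with all libraries and the filter on low counts.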

How the data were processed

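Counts per gene of 6 libraries were used as deposited. Per the submitters' processing notes, STAR 2.5, HTSeq 0.6.1 and hg19 were used. Strand setting, the treatment of reads with several matches and any poly(A) selection are not given in the sources used here, so counts of near-identical histone genes and of overlapping genes are uncertain. Of the per-sample columns 0 were left unmapped. The gene length in bases is that of the deposited table.

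The members and all gene lists were chosen with earlier results of these data known. Groups and dates came from the labels. R 4.3.3 with edgeR 4.0.16 was used (TMM, filterByExpr with min.count 10 and min.total.count 15, quasi-likelihood F test, Benjamini-Hochberg adjusted p of 0.05 over 16233 genes), with mimic alone for the mimic contrast and mimic and date for dates. DESeq2 1.42.0 and limma 3.58.1 (limma-voom) served as alternatives. Normalised CPM divide the deposited counts by the TMM-scaled size of the tested genes. For ratios within a date a prior count of 2 was added. An SE was obtained by dividing a log2 fold change by its root F statistic.

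For the ratios within a date, libraries of a date were paired because the labels give the date. Their deviations from the group means correlated at 0.0466, 0.154 and 0.513. The fitted mimic contrast was not paired, other than in the alternative with the date as a replicate block. The biological coefficient of variation was 17.1%. The labels do not say whether dates were separate cultures, so p-values measure spread that may be technical, and intervals of counting error cover counting only. Named genes were all members, 2 genes per list by size between mimics and 2 by p between dates, 3 other histones per type by counts, and the 5 most similar profiles. HIST2H2BE's and other divergent partners, HIST1H4I and the markers of other cells were named besides. Promoters were matched by gene ID, and 1 member (HIST1H2BG) by a RefSeq synonym. The code was tested on simulated data. Python 3.11.15 and matplotlib 3.10.9 were used for tables and figures.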

Additional observations from a re-analysis of the deposited data

Results flagged for a closer look

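For 3 genes the ratio between mimics had opposite signs on different dates, with the mimic below the control on 22 August and above it on both later dates. The log2 ratio spanned 1.23 between dates for HIST1H1C, 0.505 for HIST1H2BK and 0.285 for HIST3H2A. With 1 library per mimic and date these differences between dates were not tested.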

How the results depend on the processing

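With the date as a replicate block, 0 members and 0 genes were called between mimics, as without it, and the members' median log2 fold change was 0.45. That median lay between 0.35 and 0.54 with single libraries left out and was 0.58, 0.27 and 0.44 without both libraries of 22 August, 5 September and 18 September (chosen after seeing the data). Of the 10 genes, 8 stayed above 0 in all 16 settings. HIST1H2BK was −0.11 without the control library of 5 September and HIST3H2A −0.08 without the mimic library of 18 September. HIST1H2BK ran from −0.11 to 0.15 and HIST3H2A from −0.08 to 0.24. Genes called between mimics went from 0 to 20 with no filter on low counts and to 5 with DESeq2. Genes called between dates went from 50 to 576 and 166 with these, and to between 55 and 4239 with single libraries left out. There, members called were between 0 and 4 over all dates, between 0 and 4 for 5 September against the others, and between 0 and 4 for 18 September. For 5 September and 18 September against the others, the share of all genes called in these fits is not given here. With a library left out, its date has a single library and its own spread is not measured. The counts of members called in these fits are therefore not read as a difference of the set from other genes. Without both libraries of 22 August LSM5 was 0.0325 and CABIN1 −0.10. The cause of these changes was not tested. Each member's name occurs in 1 row, so adding up rows of a name left the share of histone counts at 77.7%. Depth limits HIST1H2BG and HIST1H2BC most, with 15 and 28 counts in their lowest libraries.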

Other observations

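Of the 28 histone genes outside the set that were tested, 5 had every mimic library above every control library (17.9%, against 4.22% of all genes), namely HIST1H1E, HIST1H2AE, HIST1H2AI, HIST2H2BF and HIST4H4. HIST1H1E, a linker histone gene, had 2.49, 2.22 and 2.22 normalised CPM with the mimic in date order, against 1.51, 1.80 and 1.57 with the control. HIST1H2AI, an H2A gene, had 4.21, 4.86 and 3.98 CPM, against 3.81, 2.66 and 3.47. HIST2H2BF, an H2B gene, had 1.90, 1.90 and 2.08 normalised CPM with the mimic, against 1.03, 1.12 and 1.38 with the control in date order. HIST4H4, an H4 gene outside the clusters, had 1.07, 1.30 and 1.34 CPM with the mimic, against 0.476, 0.710 and 0.617 with the control, with 29 to 37 counts against 12 to 24. The log2 fold changes were 0.50 for HIST1H1E, 0.40 for HIST1H2AI, 0.74 (SE 0.26) for HIST2H2BF and 1.02 (SE 0.32) for HIST4H4, and none of these passed (edgeR adjusted p = 0.999 each). They were singled out after their values were seen.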
